A study of Mus musculus with 4 samples.

Results

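The genes described here encode the contractile apparatus of smooth muscle: Acta2, Tagln, Cald1, Myl9, Cnn1, Myh11, Tpm1 and Tpm2. They were taken by symbol, with earlier results of these data known, and all 8 were found among the 22700 rows of each library. Total RNA, depleted of ribosomal RNA and sequenced from both ends, came from bone marrow of 12-week-old male mice after culture. The db/db donors (labelled BKS.Cg-m+/+leprdb/J, type 2 diabetic) carry the db mutation of the leptin receptor gene Lepr, and the control littermates (labelled BKS.Cg-m+/+leprdb+/J) are db/+. Culture lasted 7 to 8 days, either in M-CSF at 10 ng/ml, a growth factor that turns marrow into macrophages, or in GM-CSF at 20 ng/ml, whose cultures also hold cells with features of dendritic cells. Crossing genotype with growth factor gave 4 groups of 1 library each: M-CSF db/+, M-CSF db/db, GM-CSF db/+ and GM-CSF db/db. The sources used here do not say whether marrow of several animals was pooled.

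Smooth muscle contracts when myosin, switched on by phosphorylation of its regulatory light chain, pulls on filaments of actin. Acta2 encodes smooth muscle alpha-actin, Myh11 the smooth muscle myosin heavy chain and Myl9 a regulatory light chain. Tropomyosins (Tpm1, Tpm2), caldesmon (Cald1), calponin (Cnn1) and transgelin (Tagln, also called SM22) bind along the actin filament. Many of these genes are controlled by serum response factor (SRF) bound to CArG boxes, together with myocardin or the related cofactors Mkl1 and Mkl2. Myofibroblasts, marrow stromal cells and pericytes also use part of this set, while Myh11 is the member most restricted to differentiated smooth muscle. Macrophages build their cytoskeleton mainly from non-muscle relatives of the same proteins.

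The promoters of Acta2, Myl9 and Tpm2 are shown as examples, picked after their values and sites were seen. Their db/db over db/+ ratios in M-CSF were 2.47, 2.57 and 2.58. Acta2 and Myl9 hold CArG-like sites in the window searched and Tpm2 holds none there. The part of such sites in the ratios was not tested. RefSeq promoters were matched for 6 of the 8 members (7 promoters, GRCm38.p6), Tagln and Myh11 being the members without an entry. Each run gives the 250 bases before the start, 5′ to 3′ on the gene's strand, with capitals marking CArG boxes, including those with 1 core base that is not A or T. The Acta2 run is chr19:34255374-34255623 on the minus strand, the Myl9 run chr2:156775214-156775463 on the plus strand, and the Tpm2 run chr4:43523555-43523804 on the minus strand.
Acta2: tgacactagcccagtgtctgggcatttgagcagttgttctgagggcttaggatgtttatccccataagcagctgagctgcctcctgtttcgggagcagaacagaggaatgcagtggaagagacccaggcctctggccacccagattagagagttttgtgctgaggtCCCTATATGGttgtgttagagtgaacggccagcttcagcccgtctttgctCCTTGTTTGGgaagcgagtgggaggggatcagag
Myl9: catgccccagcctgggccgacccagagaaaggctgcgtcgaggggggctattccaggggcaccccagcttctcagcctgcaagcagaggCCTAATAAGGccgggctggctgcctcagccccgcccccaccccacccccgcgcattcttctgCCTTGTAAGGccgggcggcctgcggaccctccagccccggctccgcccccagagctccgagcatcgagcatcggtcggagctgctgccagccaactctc
Tpm2: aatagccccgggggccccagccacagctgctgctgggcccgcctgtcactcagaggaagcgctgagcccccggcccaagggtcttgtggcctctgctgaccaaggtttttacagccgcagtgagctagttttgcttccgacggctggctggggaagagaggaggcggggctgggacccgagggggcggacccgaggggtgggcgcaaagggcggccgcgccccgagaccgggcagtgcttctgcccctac

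The first Acta2 site, CCCTATATGG, lay 84 to 75 bases before the start, and the second, CCTTGTTTGG, lay 34 to 25 bases before it. Myl9 held an exact CArG box, CCTAATAAGG, at 161 to 152 bases and a site with 1 other core base, CCTTGTAAGG, at 99 to 90 bases. The motif reads the same on both strands. Among all 32851 promoters of the table, searched from 250 bases before to 50 after the start, 1.63% held an exact CArG box and 9.98% held one when 1 other core base was allowed. Promoters with 2 or more such sites made up 0.822%. Of the 7 member promoters 1 held an exact box and 2 held one with 1 other core base allowed (14.3% and 28.6%). Among 13 promoters of non-muscle relatives of these genes the shares were higher, at 23.1% and 46.2%. The promoters of Cald1, Cnn1, Tpm1 and Tpm2 held none in this window, which says only that these letters were not found there. A match is a description of the sequence and not a bound site.

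Levels are given as the normalised read counts that the authors deposited, and log2 folds are differences of log2(normalised count + 5), a scale that shrinks the folds of genes with few reads. Read totals ran from 25603393 to 28622695 per library, recovered from the deposited values. Intervals are 95% exact binomial intervals on read pairs. Read pairs are not independent molecules, so the intervals cover counting error only and hold no spread between cultures. A library at 0 allows up to 3 read pairs, that is 5.23 to 6.73 normalised reads depending on the library. The 12 macrophage markers summed to 549396.3 to 858665.5 normalised reads per library with none at 0, and Lyz2 was the largest of them in every library. Single markers differed between the cultures. In db/+ marrow 3 of the 12 were at least 2-fold higher in GM-CSF than in M-CSF and 4 lower. Emr1 was at 98661.5 in M-CSF db/+ and 11230.3 in GM-CSF db/+, and Itgax at 775.2 and 56041.7. The sum therefore does not show that both cultures held the same kind of macrophage. Low-level signal was broadest in the M-CSF db/+ library, where 526 of 1123 olfactory receptor genes were above 0, against 331 in M-CSF db/db, 114 in GM-CSF db/+ and 96 in GM-CSF db/db.

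The defining gene of the set, Acta2, was at 6124.5 normalised reads in M-CSF db/+, 15144.8 in M-CSF db/db, 75.2 in GM-CSF db/+ and 86.1 in GM-CSF db/db. Both M-CSF libraries were far above both GM-CSF libraries, and within M-CSF the db/db library was the higher. Tagln was at 2583.3, 7224.3, 124.5 and 124.8 in the same order of libraries. Cald1 was at 2321.8, 6761.6, 440.8 and 384.1, and so kept part of its signal in GM-CSF. Tpm1, which kept the most reads in GM-CSF, was at 3458.4, 7446.5, 862.5 and 931.6. The other members fell into a group with little or no signal in GM-CSF. Myl9 was at 722.9, 1858.6, 0 and 2.2, in the same order. Tpm2 was at 604.9, 1558.0, 2.3 and 2.2. Cnn1 was at 233.0, 456.6, 2.3 and 2.2. Myh11 stood apart in M-CSF, at 18.1 and 19.2 in db/+ and db/db, and was at 0 and 8.6 in GM-CSF.

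**Figure D1:**
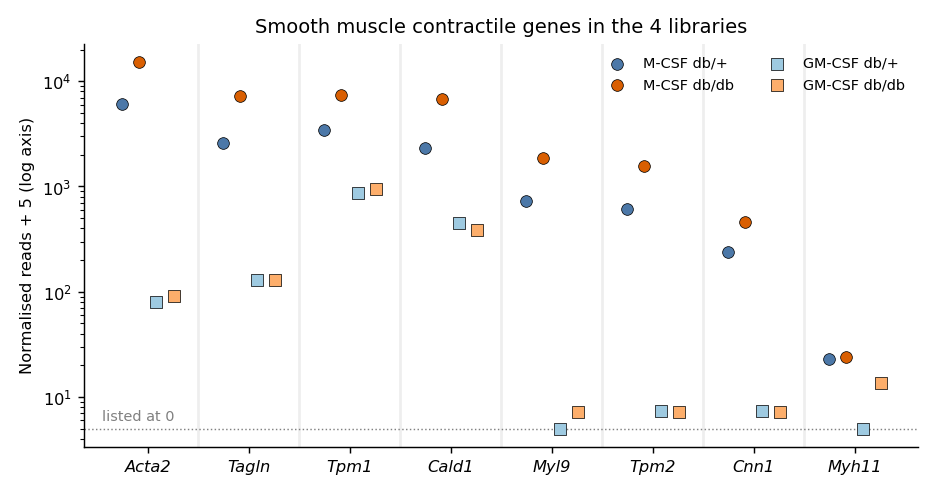
Normalised reads plus 5 of each contractile gene (log axis) in the 4 libraries, 1 point per library, with circles for M-CSF and squares for GM-CSF. For Acta2, Tagln, Tpm1, Cald1, Myl9, Tpm2 and Cnn1 the order is M-CSF db/db above M-CSF db/+ above both GM-CSF libraries, while the M-CSF points of Myh11 lie at 18.1 and 19.2.

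Compared per length, Acta2 was the most abundant member in M-CSF, at 3010 normalised reads per 1000 bases of its longest coding transcript in db/+ and 7442 in db/db. Tagln followed at 1620 and 4529 per 1000 bases, then Tpm1 at 1197 and 2577, and Myl9 at 641 and 1648. Cald1 was at 486 and 1415 per 1000 bases, Tpm2 at 278 and 716, Cnn1 at 97.9 and 192, and Myh11 at 2.76 and 2.93. With these lengths the order was the same in both M-CSF libraries. In GM-CSF the per-length order opened instead with Tpm1 at 298 in db/+ and 322 in db/db, then Cald1 at 92.3 and 80.4, Tagln at 78.1 and 78.2, and Acta2 at 36.9 and 42.3. The remaining members were at 1.95 or less per 1000 bases in both GM-CSF libraries. Lengths came from GENCODE M21, another annotation than the authors used. With all exons of a gene merged, Acta2 and Tagln stayed the first and second in both M-CSF libraries, and Myl9 passed Tpm1. Tpm2 then passed Cald1 in M-CSF db/+ but not in M-CSF db/db. In GM-CSF Tpm1 stayed the first, and Tagln passed Cald1 in both libraries.

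The mix of members was alike in both M-CSF libraries and differed in GM-CSF. As a share of all reads on the 8 genes, uncorrected for length, Acta2 took 38.1% in M-CSF db/+ and 37.4% in M-CSF db/db, against 4.99% and 5.58% in GM-CSF db/+ and db/db. Tpm1 took 21.5% and 18.4% in M-CSF against 57.2% and 60.4% in GM-CSF. Cald1 took 14.5% and 16.7% in M-CSF and 29.2% and 24.9% in GM-CSF. The 8 genes together summed to 16066.9 normalised reads in M-CSF db/+, 40469.6 in M-CSF db/db, 1507.6 in GM-CSF db/+ and 1541.8 in GM-CSF db/db.

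The first comparison asked how the contractile genes differed between db/db and db/+ marrow grown in M-CSF. Of the 8 members, 6 had a db/db level of 2-fold or more over db/+ (Cald1, Tagln, Tpm2, Myl9, Acta2 and Tpm1), Cnn1 lay just under 2-fold, and Myh11 was level within its interval. Among all 13642 genes that reached a level minimum of 20 normalised reads in at least 1 library, 5.05% were above db/+ by 2-fold or more and 0.777% below it by as much. With 1 library per group this comparison has no replicate check, and the 2-fold line is a description of size. In RNA of whole cultures, fewer cells of a type and less RNA per cell cannot be told apart.

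Acta2 was 2.47 times as high in db/db as in db/+ M-CSF (95% interval 2.38 to 2.58). The ratio of Cald1 was the highest of the members, at 2.91 (2.73 to 3.11), and Tagln followed at 2.80 (2.63 to 2.97). Both actin-binding genes therefore had intervals above that of Acta2. Tpm2 and Myl9 had nearly the same ratio, at 2.58 (2.26 to 2.94) and 2.57 (2.28 to 2.90). Tpm1 had the lowest ratio of the 6 genes past 2-fold, at 2.15 (2.04 to 2.28), and its interval did not reach that of Acta2. For Cnn1 the ratio was 1.96, and its interval, 1.58 to 2.46, spans 2. The Myh11 ratio was 1.06 (0.422 to 3.06), so a difference of up to that size was not detectable at this depth. Myh11 also missed the level minimum.

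**Figure D2:**
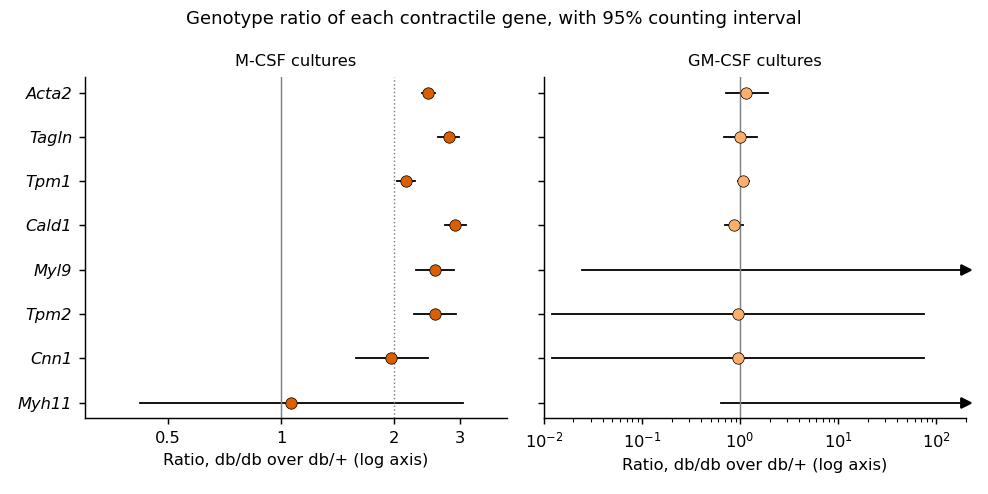
Ratio of normalised reads in db/db over db/+ (log axes) for each contractile gene in M-CSF (left) and GM-CSF (right), with points for the ratio, bars for the 95% counting interval and arrows where the interval has no upper end because db/+ is at 0. In M-CSF the dotted line marks 2-fold, which the points of 6 genes pass, and in GM-CSF every interval spans 1.

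In GM-CSF the genotype ratios of the members with reads in both libraries lay near 1. Tpm1 had a db/db over db/+ ratio of 1.08 (0.941 to 1.24), Tagln of 1.0 (0.687 to 1.49) and Acta2 of 1.15 (0.715 to 1.90). Cald1 was lower in db/db by count, at a ratio of 0.871, and its interval (0.707 to 1.07) spans 1. For Myl9, Tpm2 and Cnn1 both GM-CSF libraries were at or under the floor of 3 read pairs, so no fold is given. Myh11 was at 0 in db/+ and at 8.6 in db/db, which is 1.28-fold higher when 3 read pairs are set in place of the 0. Its counting interval runs from 0.633 upwards and spans 1. Of the 7 members that reached the minimum, 0 were at least 2-fold apart in GM-CSF. Among all kept genes 0.586% were above db/+ by 2-fold or more and 0.476% below it. Myl9, Tpm2 and Cnn1 reached the minimum in M-CSF alone. With 5 added to values of 2 reads or fewer, these genes could not be 2-fold apart in GM-CSF. At so low a share of all genes, 0 of few genes does not set the members apart. The intervals of Acta2, Tagln, Cald1 and Tpm1 in GM-CSF all ended below their intervals in M-CSF. An interaction of genotype with culture could not be tested across libraries.

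In a limma model of genotype and culture over all 4 libraries, 0 of the 7 members tested passed for genotype at an adjusted p under 0.05, where 0.00733% of the 13642 genes tested were called higher and 0% lower. The 1 gene called was Sparc, which encodes a matrix protein of stroma, at 13327.2 against 4400.0 in M-CSF. The error of this model, with 1 residual degree of freedom, comes from the difference between the genotype folds of both cultures. Acta2 had a log2 fold of 0.74 for db/db over db/+ (SE 0.18, unadjusted p = 0.0012, limma adjusted p = 0.888). At an unadjusted p under 0.05 limma gave 5 of the 7 members and 603 of all genes. The edgeR quasi-likelihood test on the recovered reads called 4 of the 7 higher in db/db, beside 0.74% of all genes, and DESeq2 called 0 of the 7. The edgeR adjusted p was 0.00125 for Myl9, 0.00172 for Tpm2, 0.00691 for Acta2 and 0.0333 for Tagln. Over all alternatives the adjusted p of each of these genes ran up to 1. Both Myl9 and Tpm2 rest on their M-CSF reads in that test, since they had 2 reads or fewer in each GM-CSF library.

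The second comparison asked how the contractile genes differed between GM-CSF and M-CSF cultures. All 8 members were lower in both GM-CSF libraries than in either M-CSF library. In db/+ marrow 7 of the 7 members that reached the minimum were at least 2-fold lower in GM-CSF, beside 15.7% of all kept genes, and in db/db marrow again 7 of 7, beside 15.8%. Of these, Acta2, Tagln, Cald1 and Tpm1 reached the minimum in all 4 libraries. Myl9, Tpm2 and Cnn1 reached it in M-CSF alone, so that they had to be lower in GM-CSF to be counted as they were. Both comparisons of growth factors hold different libraries and can be set side by side.

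Acta2 was 81.4-fold lower in GM-CSF than in M-CSF in db/+ marrow (58.8 to 120) and 176-fold lower in db/db marrow (129 to 246). Tagln was 20.7-fold lower in db/+ (16 to 27.9) and 57.9-fold lower in db/db (44.7 to 76.4). The fold of Cald1 was smaller, at 5.27 in db/+ (4.54 to 6.17) and 17.6 in db/db (15.2 to 20.6). Tpm1 had the smallest fold of these, at 4.01 in db/+ (3.59 to 4.49) and 7.99 in db/db (7.24 to 8.84). For each of these genes the interval in db/db lay above that in db/+, and the same libraries enter the genotype ratios above. Myl9, at 0 in GM-CSF db/+, was 107-fold lower there than in M-CSF db/+ when 3 read pairs are set in place of the 0. Its counting interval runs from 86.9-fold upwards. In db/db its ratio of M-CSF to GM-CSF was 845, with an interval from 155 upwards to 34130. Tpm2 was at 2 reads in each GM-CSF library, and the ratio of M-CSF to GM-CSF was 263 in db/+ (48.1 to 10680) and 708 in db/db (130 to 28630). Cnn1, likewise at 2 reads, had a ratio of 101 in db/+ (18.2 to 4120) and 207 in db/db (37.8 to 8413).

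In the limma model 7 of the 7 members tested were lower in GM-CSF at an adjusted p under 0.05, where 27.3% of all genes tested were lower and 29.8% higher. With each library scaled to its total in place of the authors' normalisation, the median log2 fold of all genes in GM-CSF over M-CSF shifted by -0.32 in db/+ and -0.35 in db/db. The split of limma calls then moved from 4062 higher and 3725 lower to 2297 higher and 6371 lower, with the 7 members lower in both. Acta2 had a log2 fold of -6.82 (SE 0.18, limma adjusted p = 4.19e-13) and Tpm1 one of -2.49 (SE 0.16, adjusted p = 5.09e-09). Tagln was at -5.06 and Cald1 at -3.25. With 0 to 2 reads per GM-CSF library, the fitted log2 folds of Myl9, Tpm2 and Cnn1 depend on the pseudocount. From a pseudocount of 1 to one of 20 they ran from -9.34 to -5.81 for Myl9, from -8.22 to -5.48 for Tpm2 and from -6.65 to -3.96 for Cnn1, each past the threshold at both ends. With no level minimum Myh11 entered the test as well, at a log2 fold of -1.52 (SE 0.46, limma adjusted p = 0.0185), and 8 of 8 members were lower, beside 19.9% of all genes. This call rests on 19, 22, 0 and 8 reads of Myh11, and in db/db the counting interval of its M-CSF to GM-CSF ratio of 2.23 (0.660 to 9.59) spans 1. Olfactory receptor genes with any read were also commoner in M-CSF (46.8% and 29.5%) than in GM-CSF (10.2% and 8.5%), and the part of such low-level signal in the Myh11 value was not tested.

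Reads of near-identical or overlapping genes can reach a member's count. Of the runs of 50 bases in the longest coding transcript of each member, 0.352% of those of Acta2 and 0.4% of those of Myh11 also stood in a transcript of another gene, and 0 of those of Cald1, Myl9, Cnn1, Tpm1 and Tpm2. For Tagln the share was 48.3% (747 of 1546 runs), of which 688 were shared with Gm48529 and 59 with its neighbour Pcsk7. Pcsk7, a proprotein convertase gene chosen for display after this was seen, was at 1331.6 and 1188.5 in M-CSF db/+ and db/db and at 1787.8 and 1664.3 in GM-CSF. Its ratio of db/db over db/+ in M-CSF was 0.892, against 2.80 for Tagln. Whether reads of Pcsk7 make up part of the 124.5 and 124.8 reads of Tagln in GM-CSF was not tested. The striated muscle actins Acta1 and Actc1, the closest relatives of Acta2 in protein sequence beside Actg2, were at 7.0 or less in every library.

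Non-muscle relatives of the members, which make up the cytoskeleton of macrophages, did not follow the same pattern as a group. Actb, the cytoplasmic beta-actin, was at 222883.5 in M-CSF db/+ and 200003.4 in M-CSF db/db, and at 207578.6 and 210840.9 in GM-CSF. Of the 12 relatives, 2 were past 2-fold upward in db/db M-CSF and 0 lower, beside 5.05% and 0.777% of all kept genes. The median log2 fold of the 12 was 0.18. It was 0.02 over all kept genes and 1.36 over the 7 contractile genes that reached the minimum. The 2 relatives past 2-fold were Cnn3, an acidic calponin, at 1334.0 against 448.9, and Myh10, a non-muscle myosin heavy chain, at 329.4 against 139.8. The calponin Cnn2 lay just under 2-fold, at 3798.2 against 1951.8. In limma 5 of the 12 were higher in GM-CSF and 3 lower, beside 29.8% and 27.3% of all genes tested. With each library scaled to its total 3 were higher and 4 lower. Cnn3, among those lower, reached the minimum in M-CSF alone, so that it had to be lower in GM-CSF to be counted. Tagln2, the transgelin of blood cells, was at 8836.9 and 8694.6 in GM-CSF against 4261.2 and 4849.9 in M-CSF, the opposite direction to Tagln (log2 fold 0.95, SE 0.09, limma adjusted p = 2.86e-07), and at 0.61 with each library scaled to its total. Tpm3 had a log2 fold of -0.60, and of -0.94 with totals scaling. The log2 fold of Tpm4 was 0.36 with the authors' normalisation (limma adjusted p = 0.013) and 0.02 with totals scaling (adjusted p = 0.881).

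**Figure D3:**
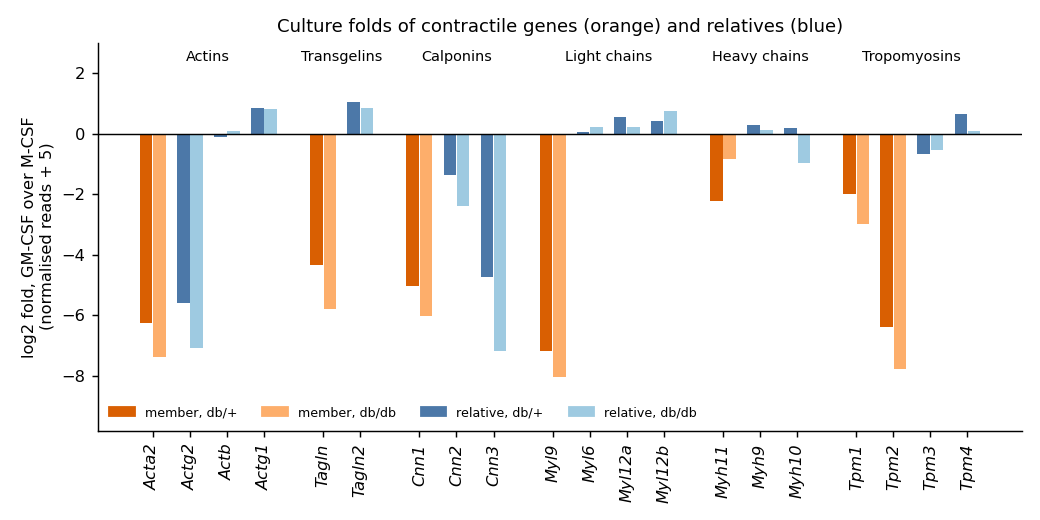
log2 fold of GM-CSF over M-CSF on normalised reads plus 5, with 1 bar per genotype, for the contractile genes other than Cald1 (orange) beside relatives of the same family (blue). Acta2, Tagln, Myl9, Tpm2 and Cnn1 reach from -4.32 to -8.02, and Tpm1 (-2.00 in db/+ and -2.99 in db/db) and Myh11 (-2.21 and -0.83) less far. Of the relatives, Actb, Actg1, Tagln2, Myh9, Myl6, Myl12a, Myl12b and Tpm4 lie between -0.10 and 1.05. Tpm3 (-0.67 and -0.525), Myh10 (0.17 and -0.98) and Cnn2 (-1.35 and -2.37) reach lower, and Cnn2 overlaps Tpm1 and Myh11. Actg2 and Cnn3 lie with the lower contractile genes.

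A list of 26 other genes of smooth muscle contraction and anchoring was measured beside the members. Of its 24 genes that reached the minimum, 11 were past 2-fold upward in db/db M-CSF and 0 lower, with a median log2 fold of 0.74. Among all kept genes 5.05% were past 2-fold upward and 0.777% lower. Actg2, the gamma-actin of smooth muscle, was at 342.4 and 1107.5 in M-CSF db/+ and db/db, against 2.3 and 3.2 in GM-CSF. Its M-CSF ratio of 3.24 (2.73 to 3.83) lay above that of Acta2. Ppp1r14a, an inhibitor of myosin phosphatase, was at 24.4 against 4.8, and Mustn1, a small nuclear protein of muscle and skeleton, at 118.5 against 39.0. Ppp1r14a and Kcnmb1, both among the 11, reached the minimum in M-CSF db/db alone, so that they had to be higher there to be counted. Tgfb1i1 (Hic-5), a focal adhesion protein, was at 351.1 against 139.8. Mylk, the kinase that phosphorylates the regulatory light chain, was at 1235.6 against 522.2. Vcl, which encodes vinculin of focal adhesions, was at 7421.2 against 3362.3, but unlike the members it was at 7705.2 and 7542.4 in GM-CSF. The most abundant gene of the list, the actin cross-linker Flna, was at 54478.4 and 59971.2 in M-CSF. In limma 17 of the 24 were lower in GM-CSF and 4 higher, beside 27.3% and 29.8% of all genes tested. With each library scaled to its total 18 were lower and 1 higher. Several of the 17, such as Actg2, Mylk and Tgfb1i1, reached the minimum in M-CSF alone, so that they had to be lower in GM-CSF to be counted. For genotype 0 of the 24 passed, 7 had an unadjusted p under 0.05, and edgeR called 2 higher, beside 0.74% of all genes.

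Other genes used as markers of differentiated smooth muscle differed in level. Des, the intermediate filament gene desmin, was at 9.5 and 7.0 in M-CSF db/+ and db/db, with 0 in both GM-CSF libraries. Smtn, which encodes smoothelin, was at 62.8 and 98.5 in M-CSF, a ratio of 1.57 (0.994 to 2.47). Lmod1, a leiomodin, was at 97.0 and 227.4 in M-CSF (ratio 2.34, interval 1.68 to 3.29). The cofactor gene Myocd was at 11.4 and 17.4 in M-CSF and at 0 in both GM-CSF libraries. Acta2, Tagln, Cald1, Myl9, Tpm1, Tpm2, Cnn1, Actg2, Smtn and Lmod1 were thus above the minimum of 20 in both M-CSF libraries. Myh11, Des and Myocd were under it in all 4 libraries. Of the genes above the minimum, those other than Actg2, Smtn and Lmod1 define the set, so their level is no check of its label.

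Among 15 genes of SRF and myocardin control, 12 reached the minimum, and 3 of these were past 2-fold upward in db/db M-CSF and 0 lower (median log2 fold 0.15). The shares over all kept genes were 5.05% and 0.777%. Srf itself was at 1155.7 and 1193.7 in M-CSF and at 955.6 and 996.2 in GM-CSF, a db/db over db/+ ratio in M-CSF of 1.03 (0.925 to 1.15). Mkl1 was at 1143.3 and 1009.0 in M-CSF, and Mkl2 at 724.8 and 738.9. The genes past 2-fold were Prrx1, a homeobox gene of mesenchyme, at 1745.3 against 535.5, the TEA domain factor Tead1 at 636.1 against 214.0, and Fhl2, a LIM domain cofactor, at 522.8 against 205.4. These 3 genes were at 7.5 or less in both GM-CSF libraries. In limma 5 of the 12 were lower and 2 higher in GM-CSF, beside 27.3% and 29.8% of all genes tested. With each library scaled to its total 8 were lower and 2 higher. Prrx1, Tead1 and Fhl2, among the 5, reached the minimum in M-CSF alone, so that they had to be lower in GM-CSF to be counted.

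A list of 20 genes that control contraction through calcium and other signals held receptors and enzymes. Of the 19 that reached the minimum, 7 were past 2-fold upward in db/db M-CSF and 0 lower, with a median log2 fold of 0.25. Rgs4, a regulator of G protein signalling, was at 46.2 against 6.7, and the alpha-adrenergic receptor gene Adra1d at 38.3 against 6.7. Avpr1a, a vasopressin receptor, was at 144.6 against 38.0, and the endothelin receptor Ednra at 29.6 against 7.6. Pde5a, which breaks down cyclic GMP, was at 165.5 against 66.6. Several of these rest on few reads, as the interval of Adra1d from 2.02 to 35.1 shows. In limma 12 of the 19 were lower and 3 higher in GM-CSF, and 14 lower and 0 higher with each library scaled to its total.

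Markers of fibroblasts and stroma moved with the contractile genes. Of the 23 on that list, 22 reached the minimum, Fbln1 in M-CSF db/db alone. Of these 22, 18 (Fbln1 among them) were past 2-fold upward in db/db M-CSF and 0 lower, beside 5.05% and 0.777% of all kept genes. The median log2 fold of the 22 was 1.32, beside 1.36 for the 7 contractile genes. Their summed level was 60085.3 and 119564.5 in M-CSF db/+ and db/db and 114562.3 and 117594.4 in GM-CSF, where Vim, an intermediate filament gene of macrophages as well, made up 107046.4 and 109762.4. Apart from such genes the list was lower in GM-CSF, as the members were. In limma 19 of the 22 were lower and 3 higher (Vim, S100a4 and Lepr), beside 27.3% and 29.8% of all genes tested. Most of the 19, such as Col5a2, Cxcl12, Sparc and Col5a1, reached the minimum in M-CSF alone. These genes had to be lower in GM-CSF to be counted as they were. The median log2 fold of the 22 genes in GM-CSF over M-CSF was -5.88 in db/+ and -6.92 in db/db, beside -5.03 and -6.00 for the 7 contractile genes. None of the 23 was at 0 in M-CSF, while 4 and 5 were at 0 in GM-CSF db/+ and db/db. The collagen gene Col1a2 had a db/db over db/+ ratio of 2.77 (2.68 to 2.87) in M-CSF, close to that of Tagln. Set among the 22 ratios of that list, with a median of 2.56, Acta2 was exceeded by 15, Tagln by 8, Cald1 by 7, Tpm1 by 18 and Myh11 by 21. The contractile genes were thus not set apart in M-CSF from the stromal list by the size of their ratios. Among osteoblast genes 3 of the 4 that reached the minimum were past 2-fold upward in db/db M-CSF. The macrophage list had 0 of 12 genes at least 2-fold apart and a median of -0.08. Both counts stand beside 5.05% of all kept genes upward and 0.777% lower. The part that a different share of stromal cells had in the contractile values, between genotypes or between cultures, was not tested.

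**Figure D4:**
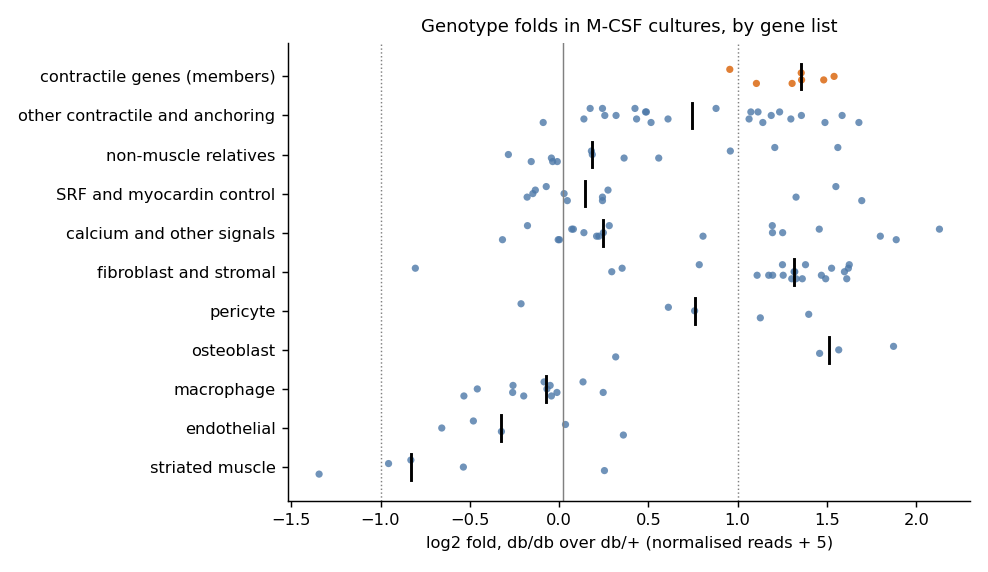
log2 fold of db/db over db/+ in M-CSF on normalised reads plus 5, with 1 point per gene that reached the minimum, bars for list medians, a solid line for the median of all kept genes and dotted lines for 2-fold. The contractile genes, at 0.96 to 1.54 with a median of 1.36, lie over the fibroblast and stromal genes, whose median is 1.32, while the macrophage genes have a median of -0.08.

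The pattern of the members over the 4 libraries was also set against all other genes. For 10168 other genes that reached 200 normalised reads in a library, the log2 values were centred on each gene's own mean and their Euclidean distance to the mean profile of the 8 members was taken. The nearest was Ltbp2, a matrix protein related to the latent TGF-beta binding proteins, at a distance of 0.13 and at 173.1, 440.0, 3.4 and 5.4 normalised reads in M-CSF db/+, M-CSF db/db, GM-CSF db/+ and GM-CSF db/db. Gja1, which encodes the gap junction protein connexin 43, followed at 0.17, and then Wnt5a at 0.19, Col4a2 at 0.21, Eml1 at 0.21, Ptpn13 at 0.22, Gas1 at 0.23, Yap1 at 0.25, Rspo2 at 0.27 and Fhl2 at 0.27. The members lay farther from their own mean, from 0.33 for Tagln and 0.64 for Cnn1 to 2.69 for Myl9 and 3.58 for Myh11. The mean profile averages members that kept reads in GM-CSF with members that had almost none. The distance rests on 4 values per gene.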

How the data were processed

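RNA of 4 libraries was analysed, 1 per group, from the processed values deposited for each sample. The values are a normalised signal per gene: read counts divided by 1 size factor per library and rounded to 1 decimal, which the authors named TMM in their deposited files. TopHat 1.2.0, edgeR and the builds mm8 and mm9 appear, per the submitters' processing notes, with no step assigned to either build. Counting tool, annotation and strand setting remain not given in the sources used here. No per-sample columns were left unused (0).

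Whole reads were recovered by dividing by the value of 1 read in each library (0.951, 0.871, 1.12 and 1.08). With a tolerance of 0.1 reads, 100% of values under 1000 and 99.4% to 99.8% of all values came out whole. Genes with 2 reads were commoner than genes with 1 in every library, so mates appear to be counted separately, and intervals were computed on read pairs. Design choices allowed for counts or normalised values, and the files hold the latter. Genes reaching 20 in at least 1 library were kept (13642). limma 3.58.1 (lmFit, eBayes with trend, prior degrees of freedom 12.87) was fitted on log2(value + 5) with genotype and culture, and Benjamini-Hochberg adjustment ran over all genes tested, two-sided, with a threshold of 0.05. edgeR 4.0.16 and DESeq2 1.42.0 on recovered single reads were alternatives. All 3 were run on simulated data with additive effects only. That setting lacks the difference in genotype folds between cultures seen here, so it is no check of the tools for it. P-values are set against the departure of these libraries from additive effects, pooled in large part over genes, and this departure may be technical. With 1 library per group they hold no spread between replicate cultures.

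The members and 11 other gene lists were chosen with earlier results of these data known. Genes named beside the members come from a set given by rule: the 3 highest of each list, up to 5 at least 2-fold apart in M-CSF, and the 10 nearest profiles, except a few that are not reported here. Other genes named (such as Mylk, Lmod1, Smtn, Des, Myocd, Rgs5, Tagln2, Tpm3, Tpm4 and Pcsk7) were picked by their known role after their values were seen.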

Additional observations from a re-analysis of the deposited data

Results flagged for a closer look

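Cald1 had a log2 fold of db/db over db/+ of -0.20 in GM-CSF (440.8 against 384.1 normalised reads in db/+ and db/db) and of 1.54 in M-CSF, opposite in sign. Its GM-CSF interval spans 1. The same opposite signs were seen for Cnn3, at -0.90 in GM-CSF and 1.56 in M-CSF on 12.3 and 4.3 GM-CSF reads. Col5a1, a collagen chain of the stromal list, was at -0.36 and 1.53, and Plin4, a lipid droplet protein of the adipocyte list, at -0.28 and 1.24. With 1 library per group the difference between the cultures was not tested for any of them.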

How the results depend on the processing

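The 6 members past 2-fold upward in M-CSF db/db and the 7 lower in GM-CSF kept their counts within 1.5 times under every pseudocount, minimum and scaling tried, and 0 members reversed. In GM-CSF 1 member (Myl9) was at least 2-fold higher in db/db with a pseudocount of 1 and 1 (Myh11) with no minimum, against 0. Counts over all genes moved more. Genes at least 2-fold apart by genotype in M-CSF numbered 471 with a pseudocount of 20, 1366 with no minimum and 334 with a minimum of 200, and in GM-CSF 562 with a pseudocount of 1, 1 with 20, 319 with no minimum and 13 with a minimum of 200. At that minimum the culture counts were 2318 in db/+ and 2225 in db/db. For genotype limma called 2 genes with a pseudocount of 1, 3 with a minimum of 200, and 0 with a pseudocount of 20 (629 at an unadjusted p under 0.05), with totals scaling (544), with no trend in the variance (617) or with genotype as the sole factor (1). edgeR called 103 genes, 4 of them members, and DESeq2 2 genes. The cause of these differences was not tested. No paired analysis was possible because each group holds 1 library. Depth limits Myl9, Tpm2, Cnn1 and Myh11 in GM-CSF, where each was under 10 normalised reads.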

Other observations

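Of 26 striated muscle genes, 5 reached the minimum of 20 normalised reads in a library, and the list summed to 458.1 in M-CSF db/+, 259.4 in M-CSF db/db, 481.3 in GM-CSF db/+ and 446.4 in GM-CSF db/db. Among all kept genes 5.05% were past 2-fold upward in db/db M-CSF and 0.777% downward. Of the 5 striated muscle genes 0 were past 2-fold upward there and 1 downward: Tnnt1, a slow troponin, was at 5.2 against 20.9 in db/+. The highest of them were Tnni2, a fast troponin, at 85.6 and 57.5 in M-CSF db/+ and db/db and 289.4 and 263.6 in GM-CSF, and Ttn, which encodes titin, at 225.4 and 124.6 in M-CSF and 61.7 and 72.1 in GM-CSF. Of 9 pericyte markers 5 reached the minimum, and 2 of these were past 2-fold upward in M-CSF and 0 downward, beside the same shares of all kept genes. The receptor gene Pdgfrb was at 970.7 against 365.2 in db/db and db/+ M-CSF and the proteoglycan gene Cspg4 at 217.8 against 97.0. Rgs5 was at 0 and 4.8. Mcam (172.5 against 99.9) and Notch3 (54.9 against 34.2) stayed under 2-fold. The most abundant of the list, the peptidase gene Anpep, had a ratio of 0.863 in M-CSF (2849.3 against 3302.4) and was at 38579.9 and 37485.0 in GM-CSF. The endothelial list had 0 of 5 measured genes at least 2-fold apart by genotype in M-CSF, again beside 5.05% and 0.777% of all kept genes.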
